A study of Mus musculus with 16 samples.

Results

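Tubulin isotypes of the mouse left ventricle were followed after transverse aortic constriction (TAC), a band around the aortic arch that makes the ventricle pump against a higher pressure. The 10 genes considered were the α-tubulins Tuba1a, Tuba1b, Tuba1c, Tuba4a and Tuba8 and the β-tubulins Tubb2a, Tubb2b, Tubb4b, Tubb5 and Tubb6. A gene was read through array probe sets whose platform annotation gives exactly 1 gene symbol. By this rule 8 of the 10 genes were measured, by 17 of the 20380 such probe sets, and 12 probe sets of 6 of these genes were above the signal limit used for testing, as were 13576 probe sets in all. Tuba1b and Tuba1c were annotated only together with other genes, on 1 and 2 probe sets, and are not described. Tubb2b and Tubb6 lay under the signal limit by their mean over all arrays, and their values are given apart.

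C57BL/6J mice, 12-14 weeks old, of either sex had TAC or a sham operation, which gives 4 groups of 4 biological replicates, each hybridised to an array of its own. Total RNA of the left ventricle was taken 14 days after TAC or the sham operation. The labels name no transgene or deletion. For TAC they name ketamine with isoflurane as anaesthesia and buprenorphine in the first days after it, and they do not say what the sham mice were given. The labels number the arrays within each group, and the numbers 1, 2, 4 and 5 of the TAC males and 1, 2, 3 and 5 of the TAC females are kept here. Because the tissue was assayed whole, more cells of a type and more RNA per cell cannot be told apart.

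Microtubules are hollow polymers of paired α- and β-tubulin, each encoded by several genes whose products differ mainly in their C-terminal tails. In cardiac muscle cells they are tracks along which motors carry cargo, and they bear load during contraction. They are also modified by removal and return of the terminal tyrosine of α-tubulin. A denser microtubule network is known in pressure-overloaded heart muscle, where it adds to the stiffness of the cells. Tuba4a and Tuba8 are α-tubulins described in adult striated muscle, Tubb4b and Tubb5 are widely expressed β-tubulins, and Tuba1a, Tubb2a and Tubb2b are known best from growing neurons.

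After TAC the signal of Tuba1a rose 3.23-fold in males and 2.02-fold in females, and that of Tubb2a rose 2.63-fold and 3.74-fold. Tubb5 rose less, by 1.64-fold and 1.35-fold on its brightest probe set. Its other tested probe set gave 1.40-fold and 1.28-fold, and was not called in females. Tuba4a and Tuba8 did not pass the test in either sex. The probe sets of Tubb4b went different ways. Values are the signal of the scanner software in arbitrary array units, fold changes are differences of mean log2(signal + 16), and a change counts as called at an adjusted p under 0.05 (limma, Benjamini-Hochberg over 13576 probe sets).

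The response of the 12 tested probe sets differed from probe set to probe set, while the median of all probe sets was near 0. In males 4 of the 12 probe sets rose, for 3 genes, and 0 fell, where 8.07% of all tested probe sets rose and 9.77% fell. In females 4 of 12 rose, for 4 genes, and 0 fell, where 6.46% of all probe sets rose and 8.6% fell. Averaged over the sexes 5 of 12 rose and 2 fell, where 12.9% of all rose and 15.8% fell; the 5 belong to Tuba1a, Tubb2a, Tubb4b and Tubb5, and the 2 that fell are both of Tubb4b. The median log2 difference of the 12 was -0.03 in males, 0.26 in females and 0.12 averaged, against -0.03 in each of these for all probe sets. The number of probe sets per gene ranged from 1 to 5, and probe sets of 1 gene are not independent.

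The 4 male TAC signals stood above all 4 male sham signals for 4 of the 12 probe sets (8.75% of all tested probe sets) and below them for 0 (10.9% of all). In females the TAC signals stood above all sham signals for 4 (8.29% of all) and below for 1 (11.6% of all). The probe sets that separated upward were those of Tuba1a, Tubb2a and Tubb5 in both sexes, and the one that separated downward belonged to Tubb4b.

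**Figure D1:**
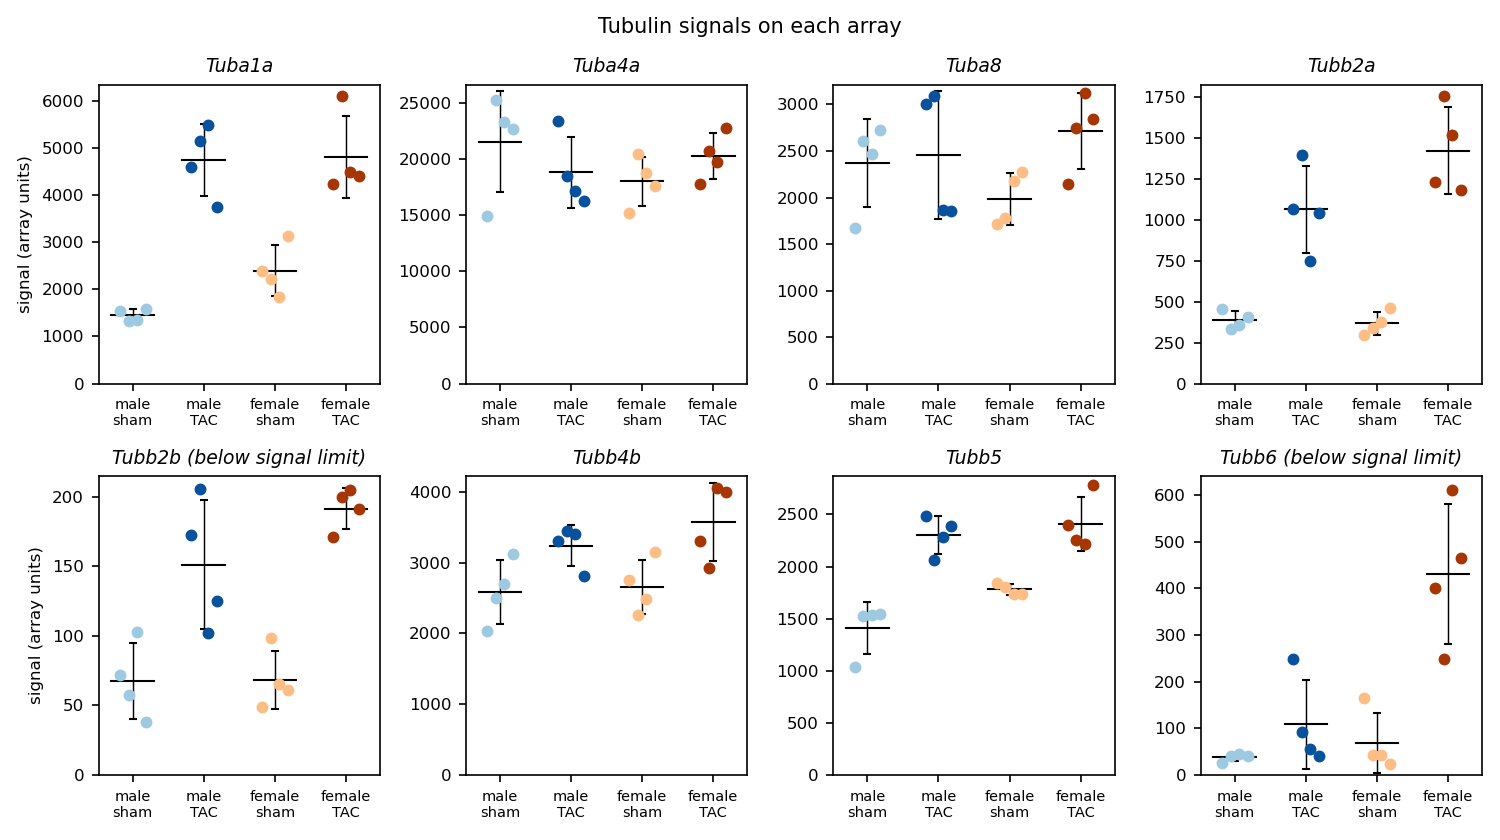
Signal in array units (vertical axes, from 0) of 8 tubulin genes on each of the 16 arrays, grouped by sex and operation, each read by its brightest probe set; points are arrays, horizontal lines group means and bars 1 SD. For Tuba1a, Tubb2a and Tubb5 all TAC arrays lie above all sham arrays of their sex, while the groups of Tuba4a and Tuba8 overlap.

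Promoters were read for 8 of the 10 genes from a RefSeq table of the build GRCm38.p6. Those of Tubb2b and Tubb6 were not read. The 250 bases before the start are shown for Tuba1a and Tubb2a, which had the largest rises of the α and β families among probe sets above the signal limit, for Tubb5, and for Tuba4a as an α-tubulin that was not called. Each is written 5′ to 3′ on the strand of the gene and ends at the base before the start. Capitals mark matches, on either strand, to the motifs searched, which were TATAA (the TATA core), CCAAT (bound by NF-Y), GGGCGG (bound by Sp1), CATTCC (the core of a TEAD site), TGACGTCA (the full cAMP response element), TGANTCA (bound by AP-1) and the CArG box (bound by SRF).
Tuba1a, chr15:98953502-98953751, minus strand: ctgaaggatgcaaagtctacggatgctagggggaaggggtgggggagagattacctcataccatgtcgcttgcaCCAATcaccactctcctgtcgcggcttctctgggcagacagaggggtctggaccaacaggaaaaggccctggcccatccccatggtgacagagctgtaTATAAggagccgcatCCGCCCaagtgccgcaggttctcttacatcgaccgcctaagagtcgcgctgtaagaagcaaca
Tubb2a, chr13:34078009-34078258, minus strand: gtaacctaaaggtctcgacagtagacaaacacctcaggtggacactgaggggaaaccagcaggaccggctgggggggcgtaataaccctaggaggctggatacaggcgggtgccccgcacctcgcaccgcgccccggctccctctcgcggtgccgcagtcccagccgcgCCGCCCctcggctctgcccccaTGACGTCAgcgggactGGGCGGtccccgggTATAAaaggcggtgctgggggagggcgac
Tubb5, chr17:35838302-35838551, minus strand: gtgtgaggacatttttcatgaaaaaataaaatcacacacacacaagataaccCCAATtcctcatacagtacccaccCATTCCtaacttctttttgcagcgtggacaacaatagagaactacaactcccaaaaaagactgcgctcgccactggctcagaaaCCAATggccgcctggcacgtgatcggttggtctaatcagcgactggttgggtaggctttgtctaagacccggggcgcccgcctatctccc
Tuba4a, chr1:75219295-75219544, minus strand: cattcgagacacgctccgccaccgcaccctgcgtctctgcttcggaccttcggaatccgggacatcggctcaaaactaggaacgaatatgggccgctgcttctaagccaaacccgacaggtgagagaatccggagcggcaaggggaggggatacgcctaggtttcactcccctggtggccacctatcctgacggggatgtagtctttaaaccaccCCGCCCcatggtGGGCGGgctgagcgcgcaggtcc

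TATAA was found in the windows of Tuba1a, 78 to 74 bases before the start, and of Tubb2a, 29 to 25 bases before it. Of all 32851 promoters listed, 22.8% held this motif in the same window. TGACGTCA was found in Tubb2a only among the 8 tubulin promoters, 59 to 52 bases before the start, and in 1.55% of all promoters. CCAAT (33.8% of all promoters) was found in Tuba1a, Tuba1c, Tubb4b and Tubb5, with 5 matches in Tubb4b and 2 in Tubb5. GGGCGG (32.7% of all) was found in Tuba1a, Tuba1b, Tuba4a, Tubb2a and Tubb4b. CATTCC was found in Tubb5 alone of the 8 (12.6% of all), and TGANTCA (6.75% of all) and the CArG box (1.47% of all) in none of them. None of the matches in the 4 printed windows overlapped another. Such matches describe letters in this window and say nothing of binding.

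Tuba1a, read by probe set 1418884_x_at, encodes an α-tubulin prominent in developing neurons. Its signal was 1536, 1331, 1346 and 1572 in sham males 1 to 4, and 4588, 5147, 5485 and 3749 in male TAC 1, 2, 4 and 5. The lowest male TAC array was thus well above the highest male sham. In females it was 2376, 2221, 1840 and 3132 in shams 1 to 4 and 4240, 6102, 4488 and 4396 in TAC 1, 2, 3 and 5. The female groups did not overlap either, though female sham 4 came nearer to the TAC arrays than any male sham did.

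The group means were 1446 ± 126 (SD, n = 4) in sham males and 4742 ± 758 in TAC males, a log2 difference of 1.69 ± 0.15 (SE, limma adjusted p = 5.20e-07). In females they were 2392 ± 542 and 4806 ± 870, a difference of 1.01 ± 0.15 (limma adjusted p = 0.000175). The female response of Tuba1a was smaller than the male one by 0.68 on the log2 scale, which did not pass (unadjusted p = 0.00543, limma adjusted p = 0.592). Female shams stood 0.70 above sham males (limma adjusted p = 0.0543), and the 2 TAC groups differed by 0.02 (limma adjusted p = 0.992, interval -0.30 to 0.34). The difference between shams passed under 8 of 28 alternative settings, with adjusted p from 0.0144 to 0.195. It was called without male TAC 5 (adjusted p = 0.0307), without female sham 3 (0.0250) and without female TAC 2 (0.0355). The suffix _x_at marks a probe set that can share probes with related transcripts, so the signal may hold other α-tubulins, among them the neighbouring genes Tuba1b and Tuba1c on chromosome 15.

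Tuba4a, an α-tubulin of adult muscle that is encoded without the terminal tyrosine, was read by 2 tested probe sets. On 1417373_a_at the signal was 14966, 25272, 23357 and 22671 in sham males and 23380, 18464, 17144 and 16313 in TAC males. In females it was 15209, 20446, 18782 and 17621 in shams and 17815, 20749, 19791 and 22777 in TAC. The TAC and sham ranges overlapped in both sexes. The log2 differences were -0.18 in males (interval -0.48 to 0.12) and 0.17 in females (-0.13 to 0.48), and on 1417374_at they were -0.12 (-0.42 to 0.19) and -0.06 (-0.36 to 0.25). None of the 4 passed, with limma adjusted p from 0.438 to 0.854. The third probe set, 1417375_at, was under the limit, with signals from 35.7 to 268.3 over the 16 arrays.

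Tuba8, another α-tubulin found in muscle and testis, had signals of 1676, 2604, 2472 and 2726 in sham males and 3002, 3096, 1867 and 1855 in TAC males. The male TAC arrays thus fell into a pair above all shams and a pair within their range. In females the signals were 1717, 1784, 2174 and 2278 in shams and 2146, 2744, 3119 and 2844 in TAC, with 3 TAC arrays above all shams. Its log2 difference was 0.03 in males (interval -0.35 to 0.42) and 0.44 in females (0.06 to 0.83, limma adjusted p = 0.117). The female value passed only when fitted on the female arrays alone (adjusted p = 0.0492).

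Among the β-tubulins the clearest separation was that of Tubb2a, read by probe set 1427347_s_at. Tubb2a encodes a β-tubulin abundant in brain. Its signal was 454, 335, 359 and 405 in sham males and 1068, 1397, 751 and 1040 in TAC males. In females it was 296, 340, 373 and 464 in shams and 1233, 1754, 1519 and 1184 in TAC. Every TAC array exceeded every sham array of the same sex, and the lowest was male TAC 4.

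The mean signal of Tubb2a went from 388 ± 52 (SD, n = 4) to 1064 ± 264 in males, a log2 difference of 1.39 ± 0.18 (SE, limma adjusted p = 2.97e-05), and from 368 ± 71 to 1422 ± 266 in females, 1.90 ± 0.18 (adjusted p = 1.52e-06). The female response was larger by 0.51 (interval -0.03 to 1.06), which did not pass (limma adjusted p = 0.781), as did not the difference of 0.43 between the TAC groups (adjusted p = 0.730). The suffix _s_at also marks possible sharing of probes, and Tubb2b lies next to Tubb2a on chromosome 13. A second probe set, 1427838_at, was under the limit, with signals of 16 to 26.7 in sham males, 17.6 to 82.0 in TAC males, 21.1 to 53.4 in sham females and 30.4 to 86.3 in TAC females, which overlap.

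Tubb5, a β-tubulin of most tissues and of dividing cells, was read by 2 tested probe sets. On 1416256_a_at the signal was 1036, 1521, 1536 and 1546 in sham males and 2489, 2058, 2279 and 2389 in TAC males. In females it was 1840, 1800, 1739 and 1739 in shams and 2401, 2254, 2212 and 2781 in TAC. The groups did not overlap in either sex, and male sham 1 stood below the other shams. TAC minus sham, in log2, was 0.72 ± 0.13 (SE) in males (limma adjusted p = 0.000493) and 0.43 ± 0.13 in females (adjusted p = 0.0253). The female call was lost without female sham 3 (adjusted p = 0.0597), female sham 4 (0.0581) or female TAC 5 (0.0877), within 0.00748 to 0.302 over 28 alternatives.

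On 1455719_at the signal of Tubb5 was 506, 572, 501 and 451 in sham males, 583, 834, 662 and 818 in TAC males, 592, 581, 517 and 587 in sham females and 796, 684, 672 and 777 in TAC females. Here too the groups did not overlap in either sex. These gave a log2 difference of 0.49 in males (limma adjusted p = 0.0183) and 0.35 in females (adjusted p = 0.0979), so both probe sets of Tubb5 had positive differences in both sexes and 3 of the 4 were called. The male call was lost without male sham 4 (adjusted p = 0.0585), male TAC 2 (0.0699) or male TAC 5 (0.0579), within 0.00784 to 0.315 over 28 alternatives. Averaged over the sexes the differences were 0.57 (limma adjusted p = 6.06e-05) and 0.42 (adjusted p = 0.00285), and with the Gapdh ratio as a covariate 0.49 (adjusted p = 0.134) and 0.43 (adjusted p = 0.248).

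Tubb4b, a β-tubulin of most tissues that is also built into cilia, was read by 5 tested probe sets whose values disagreed. On 1423642_at, the brightest, the signal was 2036, 2495, 2705 and 3119 in sham males and 3305, 3441, 3407 and 2811 in TAC males. In females it was 2757, 2255, 2490 and 3144 in shams and 3303, 2922, 4061 and 3992 in TAC. In each sex 3 of 4 TAC arrays exceeded all shams. The log2 difference was 0.33 ± 0.14 (SE) in males (limma adjusted p = 0.110), 0.42 ± 0.14 in females (adjusted p = 0.0484) and 0.38 averaged (adjusted p = 0.00677). The averaged call was lost once the 18S signal entered the fit (0.33, limma adjusted p = 0.177) and with the Gapdh ratio (0.35, adjusted p = 0.36). The female call was lost when any of 11 single arrays was left out (male sham 2 or 3, male TAC 1, 2 or 4, female sham 1, 2 or 3, female TAC 1, 3 or 5), with adjusted p from 0.0536 to 0.149 there and from 0.0169 to 0.308 over 28 alternatives.

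On the probe set 1438622_x_at of Tubb4b the direction was the opposite. The signal was 387, 519, 569 and 296 in sham males, 389, 308, 279 and 257 in TAC males, 494, 474, 415 and 429 in sham females and 345, 327, 297 and 258 in TAC females. All female TAC arrays were below all sham females, while the male groups overlapped. The log2 difference was -0.47 in males, -0.54 in females and -0.51 averaged, of which only the average passed (limma adjusted p = 0.00801), though not with the Gapdh ratio as a covariate (-0.50, adjusted p = 0.354). Without male sham 4 the male difference was -0.65 (adjusted p = 0.0252) and the female one, unchanged in size, also passed (adjusted p = 0.0402).

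On the probe set 1439416_x_at of Tubb4b the log2 difference was -0.86 in males, -0.72 in females and -0.79 averaged (limma adjusted p = 0.0253 for the average, the only one to pass). That call was lost without male sham 3 (adjusted p = 0.0599), male TAC 2 (0.0576), female sham 3 (0.0616) or female TAC 5 (0.0527), with 18S in the fit (0.119) or with the Gapdh ratio (0.579), and the male difference passed without male TAC 1 (-1.20, adjusted p = 0.0240). Its signals were 331 to 647 in sham males, 148 to 484 in TAC males, 165 to 572 in sham females and 118 to 213 in TAC females, which overlap. The remaining tested probe sets, 1456078_x_at and 1456470_x_at, had averaged differences of -0.20 and -0.01 and did not pass. No single direction can be given for Tubb4b from these 5 probe sets, of which 4 carry the suffix _x_at. A sixth, 1456031_at, was under the limit, with signals of 6.0 to 153.8.

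**Figure D2:**
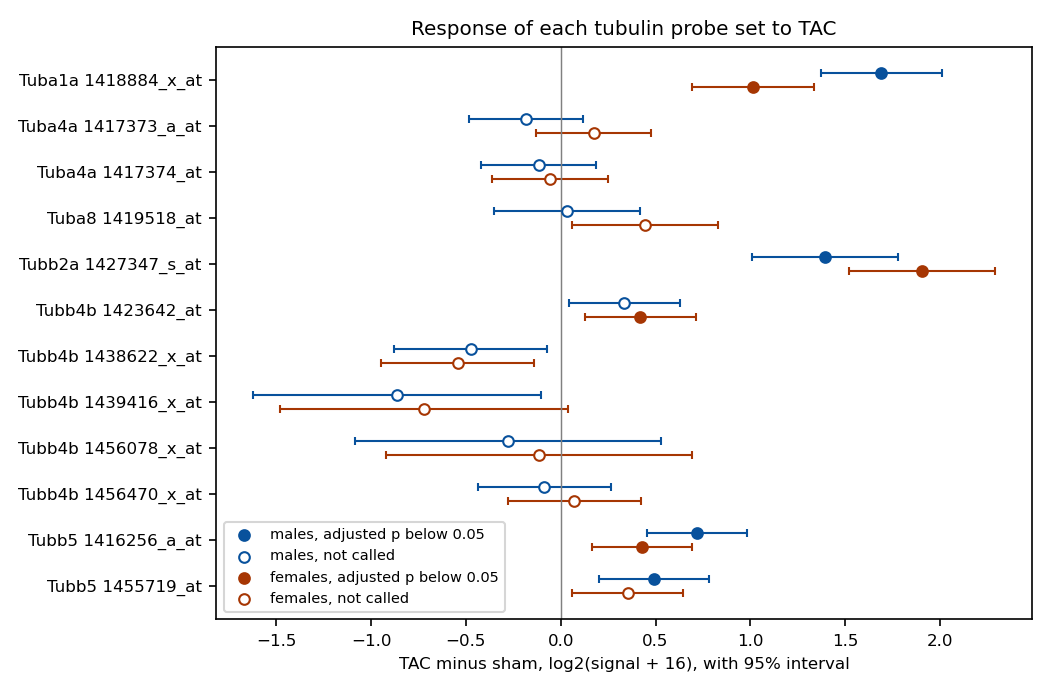
Difference between TAC and sham on the log2(signal + 16) scale (horizontal axis) for the 12 tubulin probe sets above the signal limit, males in blue and females in orange; bars are 95% intervals and filled points passed an adjusted p of 0.05. Tuba1a and Tubb2a lie farthest to the right, and the Tubb4b probe sets lie on both sides of 0.

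Tubb2b and Tubb6 were under the signal limit by their mean over all arrays and were fitted in an added model with no filter, on 22626 probe sets. Tubb2b, a β-tubulin of migrating neurons, had signals of 71.7, 57.5, 102.9 and 38.1 in sham males and 172.1, 205.4, 101.8 and 125.1 in TAC males. In females they were 48.7, 98.1, 65.4 and 61.1 in shams and 170.8, 199.4, 204.9 and 190.8 in TAC. The female groups did not overlap, and the male groups overlapped only at male sham 3 and male TAC 4. The log2 difference was 1.02 in males (limma adjusted p = 0.0669 with no filter) and 1.33 in females (adjusted p = 0.0173 with no filter). All sham signals of Tubb2b lie under the signal limit, so the size of these differences is uncertain. The male value passed without male sham 3 (1.20, adjusted p = 0.0477) or male TAC 4 (1.17, 0.0499), and the female value did not pass without female sham 1 (1.21, 0.0517). Averaged over the sexes the difference was 1.17 (adjusted p = 0.0015 with no filter), a call lost once the 18S signal entered the fit (1.15, adjusted p = 0.0807) or the Gapdh ratio did (0.69, adjusted p = 0.564).

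Tubb6, a broadly expressed β-tubulin whose excess is known to disrupt microtubules in cultured cells, had signals of 25.3, 40.6, 44.0 and 41.1 in sham males and 248.2, 91.6, 54.7 and 41.7 in TAC males. In females they were 165.1, 43.7, 42.4 and 24.2 in shams and 400.6, 248.3, 610.4 and 464.2 in TAC. All female TAC arrays exceeded all sham females, whereas 3 of 4 male TAC arrays did so in males, number 1 by the widest margin. TAC minus sham, in log2, was 2.59 in females (limma adjusted p = 0.00218 with no filter), 0.96 in males (adjusted p = 0.274 with no filter), and 1.78 averaged (adjusted p = 0.00103 with no filter). The difference between these responses, 1.62, did not pass (limma adjusted p = 0.777 with no filter), nor did the 2.04 between the female and male TAC groups (adjusted p = 0.287 with no filter). The sham signals lie mostly under the signal limit of 130.8, where a dim signal cannot be told from no expression. The size of the log2 differences from sham is therefore uncertain. All female TAC signals lie above that limit. Once the 18S signal entered the fit, the averaged value was 1.05 and did not pass (limma adjusted p = 0.26), nor did the 2.03 with the Gapdh ratio (adjusted p = 0.172).

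Between the sexes 0 of the 12 tested probe sets differed in response (1 at an unadjusted p under 0.05), where 0% of all tested probe sets passed. Between the sham groups 0 of 12 passed (2 unadjusted), where 0.309% of all probe sets did, and between the TAC groups 0 of 12 (1 unadjusted), where 0.0663% did. The unadjusted differences between shams were those of Tuba1a, given above, and of Tubb5 on 1416256_a_at, 0.35 higher in females. That between the TAC groups was that of Tubb2a. The lowest adjusted p of the difference in response was that of Tuba1a.

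The log2 ratio of 2 tubulins on the same array was taken on signal + 16, and 8 such ratios were tested (exact permutation test over arrays, 2-sided, adjusted over the 8). The log2 ratio of Tuba1a to Tuba4a was higher after TAC by 1.87 in males and by 0.84 in females, and that of Tuba1a to Tuba8 by 1.66 and 0.57. In each of these 4 comparisons all TAC arrays were above all shams (exact permutation p = 0.0286, the smallest that 4 against 4 arrays allow, adjusted p = 0.0457). Tubb2a rose relative to Tubb4b by 1.49 in females (exact permutation p = 0.0286, adjusted 0.0457), while the 1.06 in males did not pass (p = 0.0571, adjusted 0.0653, exact). The ratio of Tubb5 to Tubb4b differed by 0.38 in males (exact permutation p = 0.0571, adjusted 0.0653) and by 0.01 in females (p = 0.943). All ratios used the brightest probe set of a gene, which for Tubb4b is the only tested probe set with a positive difference in each sex. After quantile normalization 4 of the 5 called ratios kept the smallest p possible (exact permutation p = 0.0286), with differences of 1.77 and 0.71 (Tuba1a to Tuba4a), 1.67 (Tuba1a to Tuba8, males) and 1.56 (Tubb2a to Tubb4b). Their adjusted p was then 0.0571, since the ratio of Tuba1a to Tuba8 in females, at 0.55, had an exact permutation p of 0.0857.

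**Figure D3:**
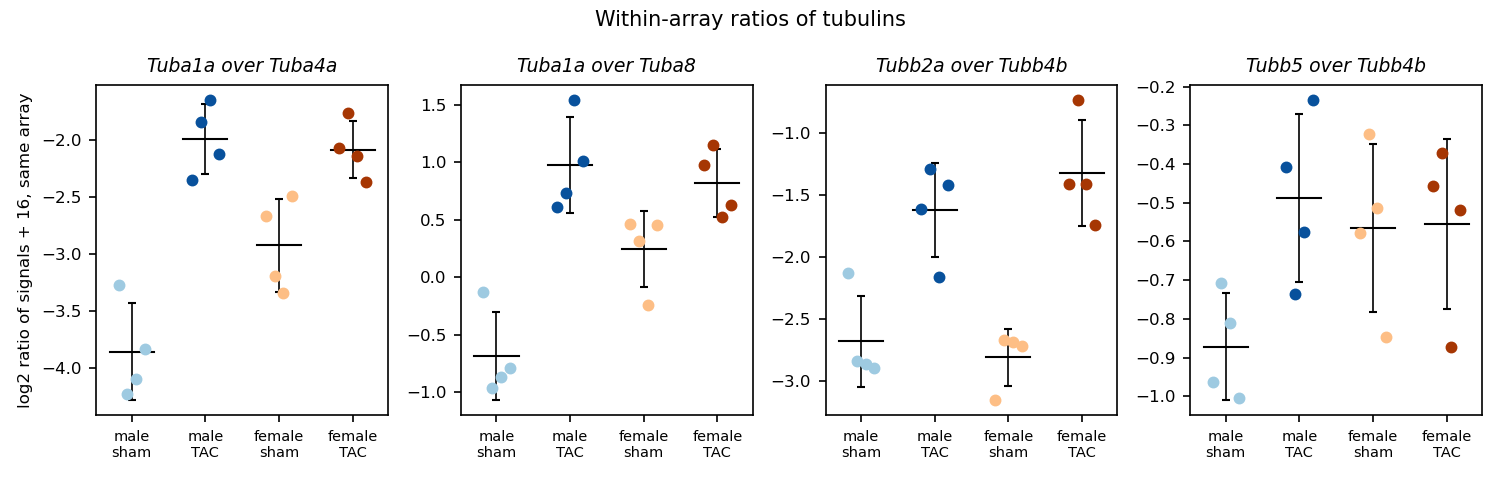
Log2 ratio of 2 tubulin signals on the same array (vertical axes, not starting at 0) for 4 pairs, by sex and operation; points are the 16 arrays, lines group means and bars 1 SD. The TAC arrays lie above the shams in both sexes for Tuba1a over Tuba4a and over Tuba8, and in females for Tubb2a over Tubb4b.

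Measures of RNA quality moved with the operation on these arrays, though not all of them separated the groups. The actin control ratio, 3′ over 5′, was 1.33 to 1.59 in shams and 1.39 to 1.98 in TAC, which overlap. It was not used as a covariate. The Gapdh control signal, 3′ over 5′, had a ratio of 0.785 to 0.921 in shams and 0.958 to 1.16 in TAC, and the log2 signal of the 5′ 18S rRNA control was 10.8 to 13.8 in shams and 9.11 to 10.7 in TAC, except male TAC 5 at 13.2. Since the Gapdh ratios of shams and TAC do not overlap, that covariate and the operation can hardly be told apart. With either as a covariate the Tuba1a calls held, at 1.40 (18S) and 1.69 (Gapdh) in males and 0.84 and 1.01 in females (limma adjusted p from 0.000567 to 0.0167). Tubb2a held in females, at 1.97 and 1.57 (limma adjusted p = 2.05e-05 and 0.00154), and in males with 18S, at 1.51 (adjusted p = 0.00259). With the Gapdh ratio the male Tubb2a value was 0.90 (limma adjusted p = 0.123), that of Tubb5 on 1416256_a_at 0.62 (adjusted p = 0.150), and that of female Tubb6 2.80 with no filter (adjusted p = 0.0572). In females Tubb5 on 1416256_a_at was at 0.45 with the 18S signal (limma adjusted p = 0.0613) and at 0.36 with the Gapdh ratio (adjusted p = 0.302), and Tubb2b with no filter at 1.31 (adjusted p = 0.0683) and 0.94 (adjusted p = 0.415). Over all tested probe sets the share that rose in males went from 8.07% to 3.17% with the 18S signal and to 1.1% with the Gapdh ratio, in females from 6.46% to 4.86% and 1.27%, and averaged from 12.9% to 5.92% and 1.75%. Without male TAC 5 the male differences were 1.80 for Tuba1a (limma adjusted p = 5.26e-07), 1.39 for Tubb2a (adjusted p = 0.00011) and 0.70 for Tubb5 on 1416256_a_at (adjusted p = 0.00175), and 3 of 12 probe sets were called.

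Markers of several cell types also differed after TAC. Their counts averaged over the sexes are read beside 12.9% of all probe sets that rose and 15.8% that fell. Of 12 fibroblast markers 6 rose averaged over the sexes and 0 fell. In males alone 7 rose and 1 fell (8.07% and 9.77% of all probe sets). The summed signal of the 12 was 21819 to 26052 in sham males, 37972 to 61748 in TAC males, 24998 to 30183 in sham females and 36541 to 51612 in TAC females. Of 11 cardiomyocyte markers 8 fell and 1 rose, with summed signals of 342971 to 415538, 293788 to 348670, 357915 to 374968 and 259104 to 320744 in the same order. Of 7 tested cycling-cell markers 5 rose and 0 fell (summed signal of 11 genes 1030 to 1596, 1816 to 2664, 1478 to 2147 and 1973 to 3743), and of 11 macrophage markers 5 rose and 0 fell (10104 to 14098, 14728 to 15682, 9702 to 11342 and 11746 to 17618). Of the 7 cycling-cell markers 2 rose in males alone and 1 in females alone (8.07% and 6.46% of all probe sets). Of the 11 summed cycling-cell genes 6, 2, 3 and 2 had a group mean under the signal limit, in the same order. Of the other lists, 2 of 11 endothelial markers, 2 of 8 smooth muscle and pericyte markers, 1 of 3 neuron and Schwann cell markers (Uchl1) and 0 of 4 platelet and red cell markers rose averaged over the sexes, and 0 fell in each. In females alone 0 of the 8 smooth muscle and pericyte markers rose and 1 fell (6.46% and 8.6% of all probe sets). The summed signal of 9 smooth muscle and pericyte genes was 14542 to 18927, 16217 to 18435, 20022 to 23667 and 14409 to 19609 in the same order. The summed signal of 8 neuron and Schwann cell genes was 737 to 1162, 1120 to 1319, 536 to 987 and 908 to 1324 in the same order. Of these 8 genes 5, 5, 6 and 5 had a group mean under the signal limit. No marker of any list had a group mean of 0, and all 11 cardiomyocyte markers, among them Myh6, Tnni3, Ryr2 and Pln, had group means above the signal limit. The part of any of these cells in the tubulin differences was not tested.

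The other genes of the microtubule system were read from lists, 1 probe set per gene, and averaged over the sexes. Of 4 tested further tubulins 1 rose, the γ-tubulin Tubg1 (0.42, limma adjusted p = 0.0112), and 1 fell, the brain β-tubulin Tubb4a (-0.87, adjusted p = 0.00362). Of 23 genes of tubulin folding 6 rose and 0 fell (median 0.20), read beside 12.9% and 15.8% of all probe sets. In males alone 4 rose and 2 fell (8.07% and 9.77% of all), and in females 1 rose and 0 fell (6.46% and 8.6%). Among the 6 that rose on average were Cct3 (0.49) and Cct8 (0.32), subunits of the chaperonin that folds tubulin and actin. The tubulin cofactors Tbca (0.42) and Tbcb (0.34), which bind β- and α-tubulin, were also among the 6. By sex, Cct3 passed only in females, Cct8 and Tbca only in males, and Tbcb in neither. Of 11 genes of tubulin modification 1 rose and 2 fell. Ttl, the ligase that returns tyrosine to α-tubulin, rose by 0.79, while Ttll1, a subunit of a polyglutamylase, fell by 1.11 and Agtpbp1, which trims glutamates from tubulin tails, fell by 0.82. Svbp, the partner of the detyrosinating vasohibins, did not pass (0.23, limma adjusted p = 0.0528).

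Of 28 genes of microtubule binding and dynamics 5 rose and 3 fell (median 0.02), and of 30 kinesin and dynein motor genes 6 rose and 4 fell (median 0.09), read beside the same 12.9% and 15.8% of all probe sets. Map4, the microtubule-associated protein of heart muscle, rose by 0.60, the plus-end binding proteins Mapre1 and Mapre2 by 0.50 and 0.80, and the polymerase Ckap5 fell by 0.45 (limma adjusted p = 0.00541). Map4, Mapre1 and Mapre2 passed in each sex separately. Of 8 genes of the γ-tubulin ring complex, which starts new microtubules, 1 rose (Tubg1) and 2 fell, the recruiting subunit Nedd1 by 0.85 and Tubgcp2 by 0.48. Among the motor genes, the dynein light chain Dynll1 rose by 1.25, the kinesin heavy chain Kif5b by 0.82 and the dynactin subunit Dctn1 by 0.32, and Kif21a fell by 0.71. None of these genes differed in response between the sexes in the same fit, where the share over all probe sets was 0%.

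**Figure D4:**
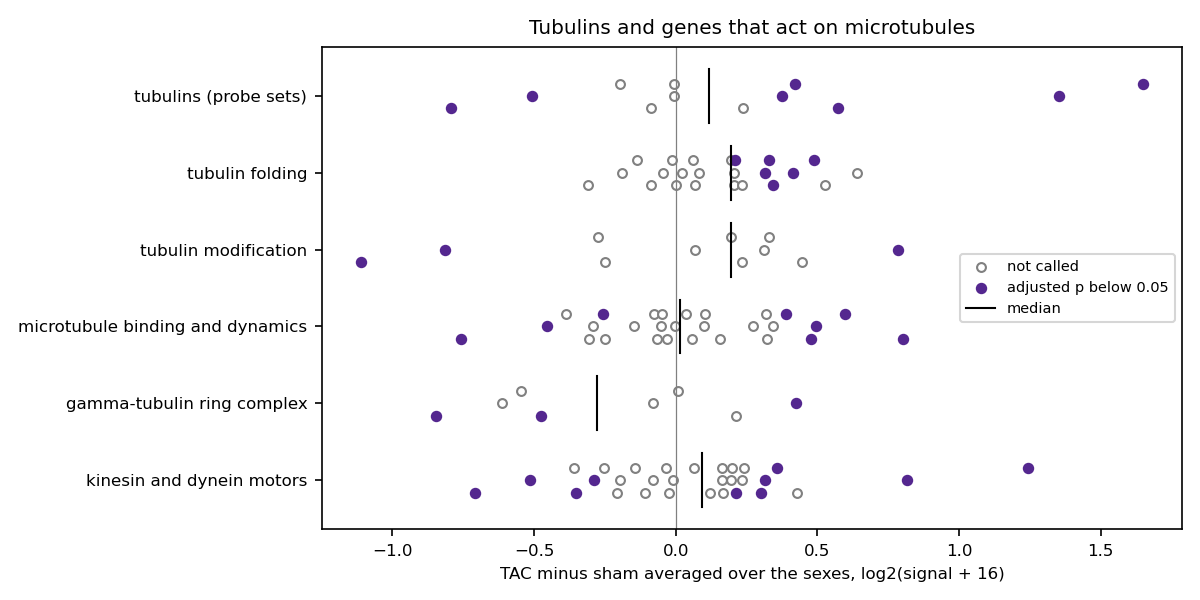
Difference between TAC and sham averaged over the sexes on the log2(signal + 16) scale (horizontal axis) for the 12 tubulin probe sets and for the tested genes of 5 lists of the microtubule system; each point is a probe set, filled where adjusted p was under 0.05, and vertical strokes are medians. Tuba1a and Tubb2a, at 1.35 and 1.65, lie to the right of every listed gene, of which Dynll1 at 1.25 comes nearest.

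Within the groups, deviations of the arrays from their group mean were compared between the tubulins as a description over 16 arrays that share scaling. Over the 15 pairs of the 6 tested genes Pearson's r ran from -0.54 (Tubb2a with Tubb5) to 0.72 (Tuba4a with Tuba8), with a median of 0.31. Tuba1a and Tubb2a, which both rose, had an r of 0.38. Among 8271 other genes the largest r with Tuba1a were those of Rpp25l (0.81), St3gal4 (0.78), Zfp758 (0.78), D10Wsu102e (0.77) and Ccdc71 (0.77), and with Tubb2a those of Chmp1b (0.85), Srsf3 (0.82), Ist1 (0.81), Psma3 (0.81) and Atf4 (0.80). The largest of so many values over 16 arrays can be high for unrelated genes too, and a link to the tubulins was not tested. Of these 10 genes 2 were called after TAC, Psma3 in both sexes (0.32 in males, limma adjusted p = 0.0366, and 0.53 in females, adjusted p = 0.00154) and Atf4 in females (0.53, adjusted p = 0.0182). Over all tested probe sets 8.07% rose and 9.77% fell in males, and 6.46% rose and 8.6% fell in females.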

How the data were processed

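Left ventricular RNA of 16 biological replicates was measured on 16 one-colour Affymetrix arrays. The deposited values are signal intensities on a linear scale, computed by the authors with GCOS (version not given in the sources used here), per the submitters' processing notes. The series text names RAE 430A arrays, while its probe sets are named as on mouse 430A arrays. The deposited intensities were already scaled: after trimming 2% at each end, the mean was 500.2 to 500.3 on every array. No further scaling was applied.

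Of 22690 probe sets, 64 controls and the 40% with the lowest mean log2(signal + 16) were left out, a limit at a signal of 130.8. The number of arrays limits the precision, and detection calls were not used here. Probe sets with several symbols (691) or none (1555) named no gene. RefSeq gave the same symbol for all 17 tubulin probe sets.

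Differences were fitted with limma 3.58.1 in R 4.3.3 (4 group means over 16 arrays, eBayes with an intensity trend, 2-sided, Benjamini-Hochberg). The same fit was tested on simulated data. Ratios within arrays used exact permutation tests in SciPy 1.17.1. The rule for named genes takes all tubulins and, of each list, up to 4 genes with the smallest averaged p. The tubulins and the lists were chosen with earlier results of these data known. Alternatives were a pseudocount of 1 or 64, median centring, quantile normalization, no filter or one of 60%, no intensity trend, array weights, only the groups compared, a replicate block, the 18S and Gapdh covariates, and each array left out. The fits with no filter for Tubb2b, Tubb6 and other dim probe sets were chosen after seeing the data.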

Additional observations from a re-analysis of the deposited data

Results flagged for a closer look

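In 5 of the 68 groups of 4 arrays examined, over 17 tubulin probe sets, 1 array lay far from the other 3, with a gap to the nearest of them above the 95% critical value of Dixon's test. Chance gives about 1 in 20 groups. The signal of Tuba1a was highest in female TAC 2, at 6102, where the other female TAC arrays were at 4240 to 4488. That of Tubb4b on 1456470_x_at was lowest in male sham 4, at 1020.4, and that of Tubb5 on 1416256_a_at in male sham 1, at 1035.8. Tubb5 on 1455719_at was lowest in female sham 3, at 517.1. The dim signal of Tubb6 was highest in female sham 1, at 165.1, where the other female shams were at 24.2 to 43.7. The cause was not tested for any of these.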

How the results depend on the processing

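Of 2736 single tubulin values under the alternatives, 58 lost and 17 gained a call, 2661 did neither, and 0 called values reversed. The 2661 include the ratios with an array left out or with the replicate block, which were values without a test. Of the 2661, 138 uncalled values changed sign, such as female Tuba8 with the Gapdh ratio (-0.08). Of the 12 tubulin probe sets, those called in males (4) came to 1 with the Gapdh ratio as a covariate. Those called in females (4) came to 2 with the Gapdh ratio, 2 with the 18S signal and 2 without an intensity trend. Those called on average (7) came to 2 with the Gapdh ratio. The sham comparison, with 0 calls, had 1 (Tuba1a) after median centring, with a pseudocount of 64, with the 60% filter, on the groups compared alone and with the replicate block. Leaving out single arrays gave 3 to 5 calls in males, 2 to 5 in females (2 without female sham 3 or female TAC 5), 6 to 7 on average and 0 to 1 between shams. Quantile normalization left 0 of 5 called ratios, of which 4 kept the smallest exact p and moved in adjusted p from 0.0457 to 0.0571; with an array left out, 3 against 4 arrays allow no p under 0.0571, so the ratios were then values without a test. The cause was not tested.

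Titles number the replicates in each group. With this number as a replicate block, 3 probe sets were called in males, 3 in females, 6 on average and 0 in the difference of responses. Over 19 same-number pairs of arrays the deviations correlated at -0.03 to 0.11 (median 0.01, 1 above 0.1), and 3 of 16 arrays correlated best with their own number, so the numbers are not shown to pair the samples. The titles also carry a running number over the whole series, in which every TAC array comes before every sham array. What it records is not stated, and any effect of that order cannot be told apart from the operation. Median centring moved the median of all probe sets in females from -0.03 to 0.08. The sham signals of Tubb2b and Tubb6 lay mostly under the signal limit, which makes the size of their differences uncertain.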
